A study of Mus musculus with 6 samples.

Results

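Lymphoid neogenesis is the building of lymph node-like tissue outside lymph nodes, and 10 genes that are central to it were followed in lungs of mice that overproduce TNF. They were the chemokines Cxcl13, Ccl19 and Ccl21a, the chemokine receptors Cxcr5 and Ccr7, the lymphotoxin subunits Lta and Ltb, their receptor Ltbr, and the addressins Madcam1 and Glycam1. All 10 were found by their symbols among the 49568 symbols of the count table. The comparison was between whole lungs of 3 TNF+ mice (genotype TNF-Tg, a line with a copy of the human TNF gene) and 3 TNF- mice (genotype WT, their littermates). All were female, 4 months of age and of C57BL/6 background, and no treatment is given. Each lung gave one stranded poly(A) RNA library of single-end 100 bp reads. The lungs held between 25396923 and 32529408 counts, so that 3 counts, taken as the smallest detectable level, equalled 0.0922 to 0.118 CPM (counts scaled to library size).

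In lymph nodes and in the aggregates that form in inflamed tissue, lymphotoxin on lymphocytes binds the lymphotoxin beta receptor on stromal cells and blood vessels. The receptor acts through the noncanonical NF-kB pathway, and stromal cells respond with CXCL13, which draws B cells through CXCR5, and with CCL19 and CCL21, which draw T cells and dendritic cells through CCR7. High endothelial venules, the vessels by which lymphocytes enter, display addressins such as MAdCAM-1 and GlyCAM-1, which are bound by adhesion molecules of lymphocytes, MAdCAM-1 by the integrin alpha4beta7.

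Cxcl13, Ccl19, Ltb and Madcam1 were higher in TNF+ lungs, Ccr7 and Ltbr were lower, and Ccl21a, Cxcr5, Lta and Glycam1 did not pass the test (edgeR's quasi-likelihood test, adjusted p under 0.05 after Benjamini-Hochberg adjustment over all 19199 genes tested). The 6 calls among 10 members stood against 47.4% of all genes tested that were called in either direction. The 4 members called higher stood against 24.0% of all genes, and the 2 called lower against 23.4%. In 7 members the TNF+ and TNF- lungs did not overlap, against 58.7% of all genes. All 10 members passed the filter on low counts, Madcam1 only through its counts in TNF+ lungs and Glycam1 mainly so, so neither these counts nor a median over the members are support for a change of the group. The median log2 fold change was 1.27 over the 10 members and 0.63 over the 8 without Madcam1 and Glycam1, beside 0.03 over all genes tested.

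**Figure D1:**
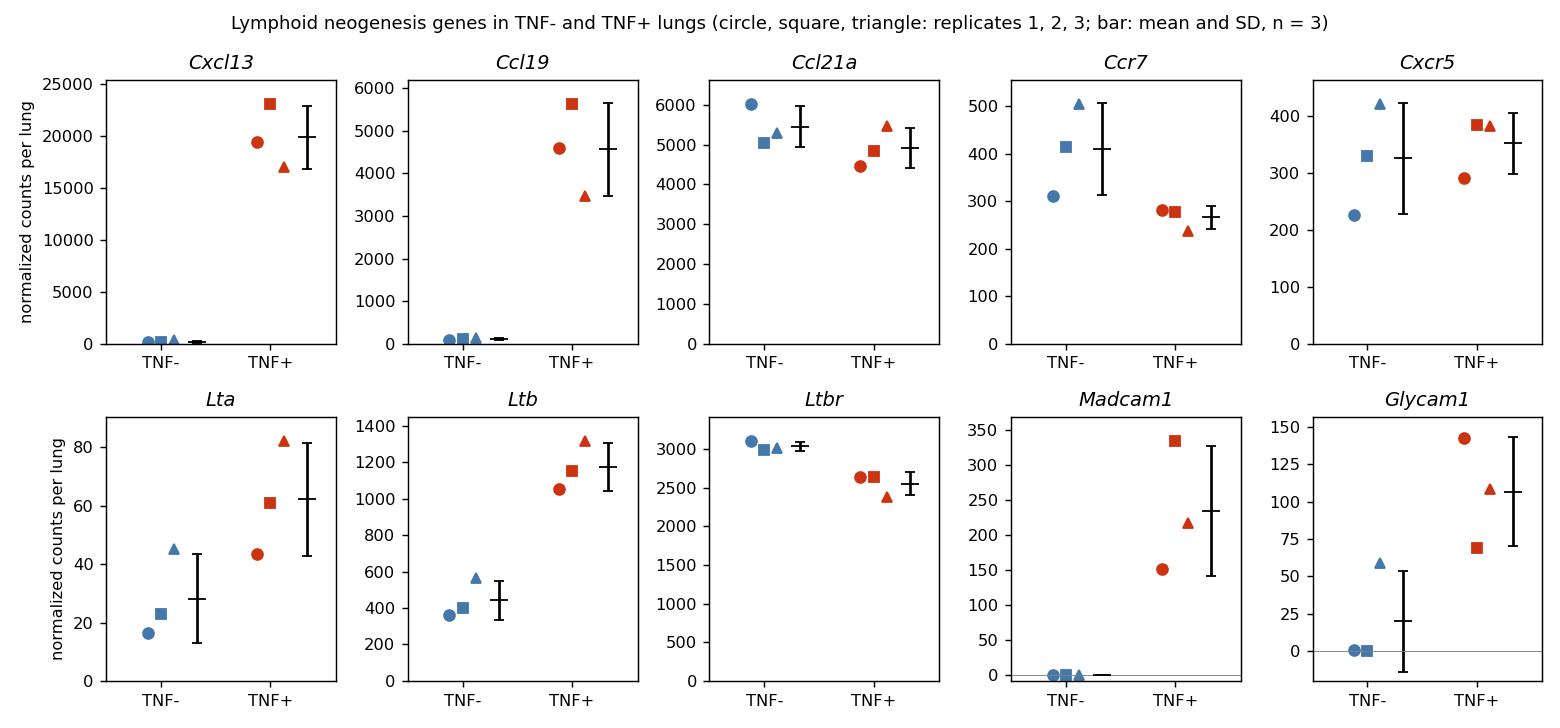
Normalized counts (counts divided by library size after edgeR's TMM scaling, on the scale of the mean library) of the 10 members in each lung. Blue symbols are TNF- and red symbols TNF+ lungs, a symbol shape marks the replicate number, and bars give mean and SD with n = 3. Cxcl13, Ccl19, Ltb, Madcam1 and Glycam1 have all TNF+ lungs above all TNF- lungs, and Ccr7 and Ltbr have them below.

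The libraries were checked before the genes were compared. Mouse Tnf, the counterpart of the human transgene, gave 106, 213 and 405 counts in TNF+ and 16, 14 and 35 in TNF- (log2 fold change 3.62, SE 0.46, adjusted p = 0.000471 by edgeR). A pair of libraries stood apart. In TNF+ replicate 1 the gene Gm42418 took 5.22% of all counts, while it took 0.0774% to 0.274% elsewhere. TNF- replicate 1 held 108358 counts of squamous epithelium markers, against 319 to 1054 in the others. The edgeR results, the fold changes and the counts of calls, were therefore also computed without both of them. Of 6 lung markers, 4 were lower in TNF+ lungs, with a median log2 fold change of -1.14. Counts of calls in this and every other list stand beside 24.0% of all genes called higher and 23.4% called lower. The summed level of the 6 lung markers was 19236 to 25008 CPM in TNF+ and 37092 to 43531 CPM in TNF- lungs. The airway secretory gene Scgb1a1 had -1.77 (SE 0.31), and the alveolar type 1 cell genes Hopx and Ager had -1.60 (SE 0.11) and -1.40 (SE 0.15). The p-values rest on the spread between 3 mice of each genotype.

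The sequence upstream of a gene's start is where transcription factors such as NF-kB bind, and it is shown for Cxcl13 and Madcam1 because they had the largest changes of a chemokine and of an addressin that passed the test. RefSeq (GRCm38.p6) gave a promoter window, 250 bases before to 50 bases after the start, for 8 of the 10 members, all but Ccr7 and Cxcr5. The 250 bases before the start are printed 5′ to 3′ on the strand of the gene, from chr5:95956689-95956938 (plus strand) for Cxcl13 and chr10:79664309-79664558 (plus strand) for Madcam1. Capitals mark matches to an NF-kB-like motif, GGGNNNNNCC on either strand.
Cxcl13 upstream: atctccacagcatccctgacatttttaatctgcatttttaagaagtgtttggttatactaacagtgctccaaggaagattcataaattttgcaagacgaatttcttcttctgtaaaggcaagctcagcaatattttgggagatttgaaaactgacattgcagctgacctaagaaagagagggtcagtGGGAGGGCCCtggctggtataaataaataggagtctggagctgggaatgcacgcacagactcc
Madcam1 upstream: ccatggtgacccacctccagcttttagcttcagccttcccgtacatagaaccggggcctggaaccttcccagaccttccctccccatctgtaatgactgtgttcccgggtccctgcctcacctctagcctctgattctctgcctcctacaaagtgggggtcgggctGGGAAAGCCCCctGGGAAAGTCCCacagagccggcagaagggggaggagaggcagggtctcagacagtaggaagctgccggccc
The motif lay at 1 position in Cxcl13, -63 to -54 from the start, and at 4 overlapping or neighbouring positions between -84 and -61 in Madcam1. Over the whole windows it was present in 6 of 8 members, Cxcl13, Ccl19, Lta, Ltb, Ltbr and Madcam1, and in neither Ccl21a nor Glycam1. It was present in 50.8% of all 32851 promoter windows, so that a match alone is common. The windows of Ltb and Madcam1 held the same 10 bases, GGAAAGTCCC, which 51 of the 32851 windows (0.155%) held on either strand and which were singled out after the windows had been read. The TATA box letters TATAAA, which did not overlap the NF-kB-like matches, were present in Cxcl13, from -46 to -41, and in Lta, and in 13.6% of all windows. A match of letters is a description of the sequence and not a measured site.

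Of the chemokines, Cxcl13 and Ccl19 were the members with the largest fitted change that had counts in every lung, and Ccl21a did not pass the test. Cxcl13, the B cell attractant of follicles (chr5:95956951-95961068, plus strand, GRCm38), was counted 14783, 22375 and 18047 times in TNF+ replicates 1, 2 and 3, and 129, 161 and 336 times in the TNF- replicates. No TNF+ lung came near a TNF- lung. The mean normalized count was 19889 ± 3071 in TNF+ and 192 ± 93.5 in TNF- lungs (SD, n = 3), a log2 fold change of 6.69 (SE 0.37, adjusted p = 9.56e-06 by edgeR). It ranged from 6.43 to 7.15 over 15 other settings of the analysis and kept its call in each.

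Ccl19, one of the ligands of CCR7 (chr4:42754525-42756577, minus strand), reached 3486, 5454 and 3669 counts in the TNF+ replicates and only 94, 104 and 144 in TNF-. The groups were again far apart, and the spread within each was small beside the gap between them. This gave a log2 fold change of 5.43 (SE 0.23, adjusted p = 4.19e-06 by edgeR; normalized counts 4567 ± 1089 against 106 ± 19.8), with 5.25 to 5.58 over the 15 other settings.

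Ccl21a, the other ligand of CCR7 (chr4:42772860-42773993, minus strand), gave 3387, 4679 and 5786 counts in TNF+ and 6306, 5259 and 5948 in TNF-. After normalization the groups overlapped, with 4922 ± 503 in TNF+ and 5450 ± 513 in TNF- lungs. The log2 fold change was -0.15 (SE 0.12, adjusted p = 0.335 by edgeR), and it lay between -0.24 and -0.04 under the other settings, none of which gave a call. Per exon length, the levels of Ccl21a and Ccl19 overlapped in TNF+ lungs, and Ccl21a lay far above Ccl19 in TNF- lungs.

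**Figure D2:**
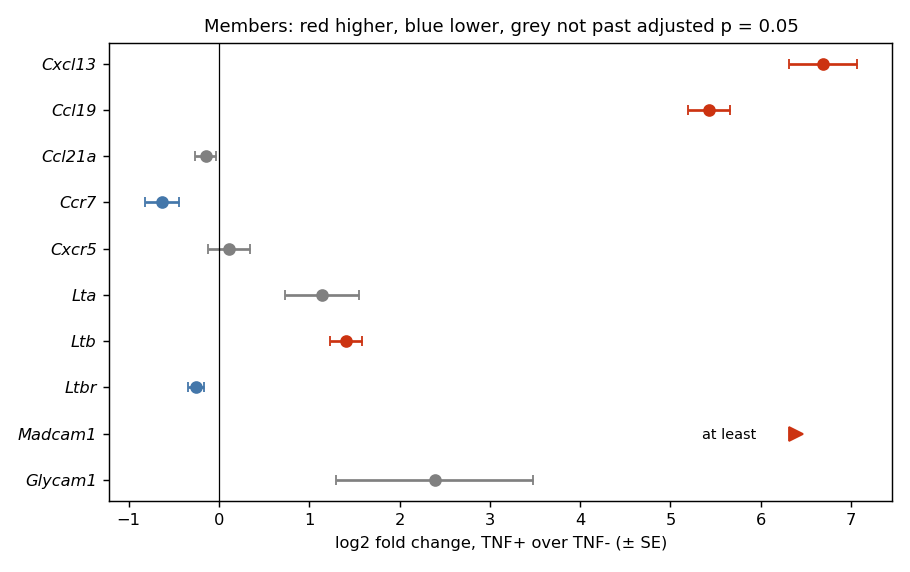
Log2 fold change of the 10 members, TNF+ over TNF-, with standard errors from edgeR. Red and blue points passed an adjusted p of 0.05 (higher and lower), grey points did not, and the arrow for Madcam1 marks the lower bound from a floor of 3 counts per TNF- lung. Cxcl13, Ccl19 and Madcam1 lie beyond 5 on the log2 scale and the receptors Ccr7, Cxcr5 and Ltbr lie near 0.

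The mouse genome holds near-identical copies of Ccl21 and Ccl19 in one region of chromosome 4, so the counts of both members have to be read with those of their copies. Background knowledge separates the CCL21-Ser form, the product of Ccl21a in lymphoid organs, from the CCL21-Leu form of other copies, known from lymphatic vessels of other organs. Over the 402 coding bases, Ccl21a differed from each of Ccl21b, Gm13304, Gm21541 and Gm10591 at 2 positions, T84A and C194T (Ccl21a first, counted from 1 at the first coding base), which gives 99.5% identity. The stretch around the position in codon 65 is shown because Ccl21a can be told from its copies there, although the 4 copies are alike over this stretch. It covers coding bases 164 to 224 in GENCODE M21 transcripts of GRCm38, 5′ to 3′ on the strand of the gene, with the differing base in capitals. Ccl21a lies at chr4:42772860-42773993 on the minus strand and Ccl21b at chr4:42255767-42256432 on the plus strand.
Ccl21a: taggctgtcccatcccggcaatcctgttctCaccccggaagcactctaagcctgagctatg
Ccl21b: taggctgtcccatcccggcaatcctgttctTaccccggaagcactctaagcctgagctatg
Of the 100-base windows of the transcripts of Ccl21a, 50.3% also occurred in 4 other genes, and of Ccl19 39.3% in 4 others, Ccl19-ps1, Ccl19-ps3, Gm12407 and Gm2564. The other 8 members shared no such window.

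The copies of Ccl21 were lower in TNF+ lungs, although Ccl21a did not pass the test. Ccl21b, Ccl21c, Gm13304, Gm10591 and Gm21541 had log2 fold changes between -0.64 and -0.63, and Gm21541 had -0.64 (SE 0.12, adjusted p = 0.00337 by edgeR). Gm13304 and Gm21541 lie apart, at chr4:42114817-42115917 and chr4:41903610-41904743, and had equal counts in 4 of 6 lungs and a difference of at most 2 counts in the others. Gm13304 and Gm21541 are therefore not separate measurements. Sequence sharing was not measured for Ccl21c, and none of the 5 copies is taken as a separate measurement. The ratio of Ccl21b to Ccl21a counts was 0.434, 0.430 and 0.405 in TNF+ lungs and 0.613, 0.569 and 0.578 in TNF- lungs, without overlap. The methods speak of uniquely mapped transcripts. Yet 100% of the 100-base windows of Ccl21b, Gm13304 and Gm10591, and 96.9% of those of Gm21541, also occurred in Ccl21a or other copies. Gm13304 and Gm21541 held between 1198 and 3141 counts per lung. The setting for reads that match several copies was not given in the sources used here, and the split between Ccl21a and its copies is uncertain.

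The copies of Ccl19 rose with it. The pseudogene Ccl19-ps1 had a log2 fold change of 4.63 (SE 0.40) and Ccl19-ps3 of 4.55 (SE 0.25). Gm12407 and Gm2564, named after the shared windows had been found, ranged from 492 to 614 and from 991 to 1281 counts in TNF+, and from 27 to 53 and from 42 to 92 in TNF-. Each of these copies moved in the direction of Ccl19. Ccl19 and Ccl21a also lie on the strand opposite to 4930578G10Rik, which had 2 to 30 counts per lung.

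**Figure D3:**
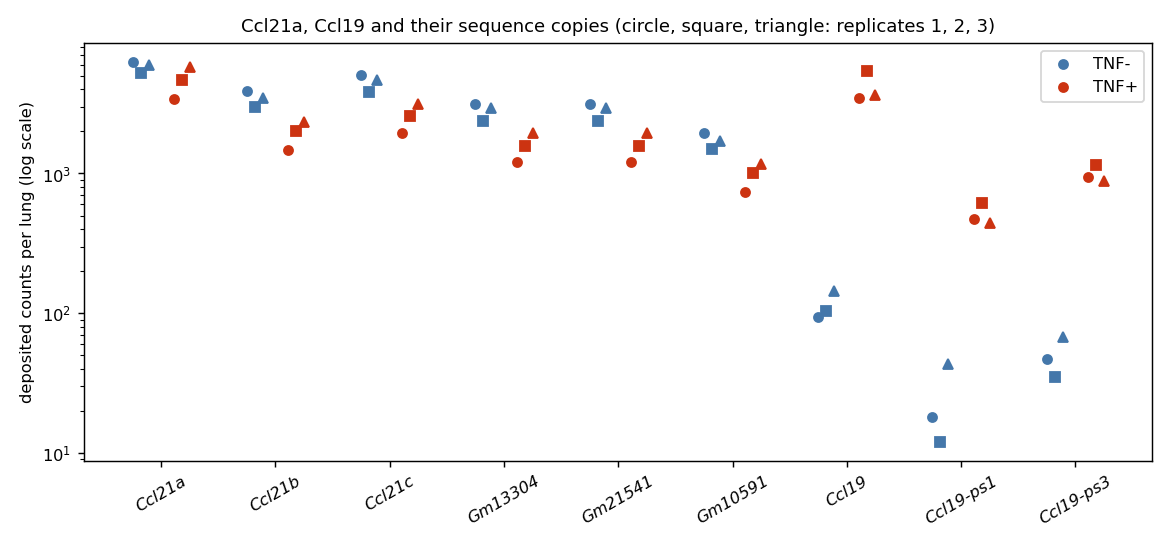
Deposited counts per lung, on a log scale, of Ccl21a and Ccl19 and of the copies with a row in the table. Blue symbols are TNF- and red symbols TNF+ lungs. The copies of Ccl21 sit lower in TNF+ lungs, with nearly the same counts at Gm13304 and Gm21541 (equal in 4 of 6 lungs), and Ccl19 and its pseudogenes sit higher.

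The receptors for these chemokines were not called higher, unlike the ligands Cxcl13 and Ccl19. Ccr7, which guides T cells and mature dendritic cells (chr11:99144196-99155077, minus strand), gave 214, 269 and 251 counts in TNF+, below the 325, 433 and 569 of TNF-. All TNF+ lungs lay below all TNF- lungs, by a narrow margin after normalization (282 the highest of TNF+, 311 the lowest of TNF-). Its log2 fold change was -0.63 (SE 0.19, adjusted p = 0.0267 by edgeR). The call was lost without TNF+ replicate 2 (adjusted p = 0.0634), TNF+ replicate 3 (0.0877), TNF- replicate 2 (0.0747) or TNF- replicate 3 (0.0678, log2 fold change -0.46), and the value stayed below 0 in each.

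Cxcr5, the receptor of CXCL13 on B cells and follicular helper T cells (chr9:44511787-44561877, minus strand), gave 220, 371 and 404 counts in TNF+ beside 237, 344 and 474 in TNF-. The groups overlapped over most of their range. The log2 fold change was 0.11 (SE 0.23, adjusted p = 0.717 by edgeR), from -0.12 without TNF- replicate 1 to 0.33 without TNF- replicate 3. The gene shares 110 bases with Bcl9l on the opposite strand, and the strand setting of the counting was not given in the sources used here. Bcl9l had 1287 to 1812 counts in TNF+ and 4582 to 4891 in TNF- lungs. Its part in the Cxcr5 value was not tested.

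Lymphocyte markers were higher in TNF+ lungs, and the receptors were also set against them. Of all genes tested, 24.0% were called higher. Of 8 B cell markers 5 rose and none fell (median log2 fold change 0.77), among them Cd79a, a subunit of the B cell receptor complex (1.04, SE 0.23, adjusted p = 0.00692 by edgeR), Cd22 (1.04, SE 0.19) and Fcrla (1.21, SE 0.30, adjusted p = 0.0113, and 0.0746 without both libraries that stood apart). Of 8 T cell markers 6 rose (median 0.89), among them Trac, the constant region of the T cell receptor alpha chain (1.16, SE 0.26), and Cd3g (1.13, SE 0.27, adjusted p = 0.0105, and 0.0605 without both libraries that stood apart). Cd28, the costimulatory receptor, had 1.35 (SE 0.38, adjusted p = 0.0199), and its call was lost without TNF+ replicate 1 (0.0769) or 2 (0.0569), TNF- replicate 1 (0.0583) or 2 (0.0635), or both libraries that stood apart (0.145). The number of B cell markers called was 2 without both libraries that stood apart. For the T cell markers it was 3 without any one of TNF+ replicates 1 and 2 and TNF- replicates 1 and 2, and 1 without both libraries that stood apart. The summed level of the B cell markers was 312 to 355 CPM in TNF+ and 145 to 257 CPM in TNF- lungs, and that of the T cell markers 113 to 147 CPM and 60.2 to 107 CPM. In RNA of whole tissue, more cells of a type and more RNA per cell cannot be told apart.

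Relative to these markers, both receptors were lower in every TNF+ lung. The log2 CPM of Cxcr5 minus the mean log2 CPM of the B cell markers was -1.42 ± 0.252 in TNF+ and -0.87 ± 0.102 in TNF- lungs (SD, n = 3), a difference of -0.55. Ccr7 minus the T cell markers was -0.77 ± 0.114 in TNF+ and 0.66 ± 0.138 in TNF- lungs, a difference of -1.43. In both, the groups did not overlap, and the exact two-sided permutation test gave p = 0.1, the smallest that 3 lungs against 3 allow, and 0.12 after adjustment over the 6 relative values computed. This test cannot go below an adjusted p of 0.1 with 3 lungs a group.

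**Figure D4:**
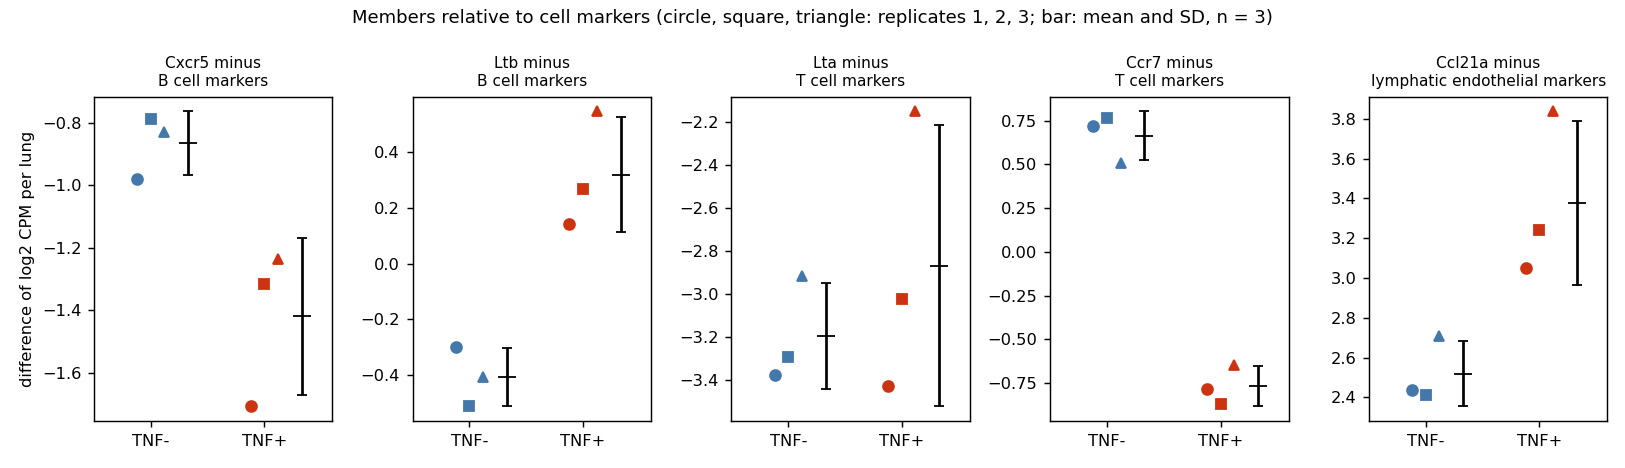
Log2 CPM of a member minus the mean log2 CPM of a marker list, per lung, for 5 of the 6 relative values. Blue symbols are TNF- and red symbols TNF+ lungs, with mean and SD (n = 3) beside them. Cxcr5 and Ccr7 sit lower in TNF+ lungs, Ltb and Ccl21a sit higher, and Lta overlaps.

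Ccl21a was set against lymphatic endothelial markers, since lymphatic vessels are a known source of CCL21. The form known from lymphatic vessels outside lymphoid organs is that of the other copies, such as Gm21541 (-0.64, SE 0.12). Those copies were not set against the markers, and the split of reads between them and Ccl21a is uncertain. Of 6 lymphatic endothelial markers 4 fell and none rose (median log2 fold change -0.74), where 23.4% of all genes tested were called lower. Among those that fell were Lyve1, a hyaluronan receptor (-3.06, SE 0.22, adjusted p = 3.03e-05 by edgeR), and Flt4, the receptor for VEGF-C (-1.40, SE 0.12). Mmrn1 had -0.78 (SE 0.23, adjusted p = 0.0227), which did not pass without TNF+ replicate 3 (0.0558) or TNF- replicate 1 (0.0581) or 2 (0.0526). Prox1, the transcription factor that sets lymphatic identity, had 0.16 (SE 0.27) and did not pass. Lyve1 is also known from some macrophages. Ccl21a relative to these markers was 3.38 ± 0.411 in TNF+ and 2.52 ± 0.164 in TNF- lungs, a difference of 0.86 with no overlap (exact permutation p = 0.1, adjusted 0.12). With the summed level of the markers in place of their mean, the difference was 1.34.

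Of the lymphotoxin genes, Ltb rose and Lta did not pass the test. Ltb, the membrane-bound subunit (chr17:35194439-35196320, plus strand), gave 797, 1116 and 1394 counts in TNF+ and 381, 417 and 635 in TNF-. The lowest TNF+ lung lay above the highest TNF- lung. The mean normalized count was 1174 ± 134 against 443 ± 107, a log2 fold change of 1.41 (SE 0.18, adjusted p = 0.000447 by edgeR), and 1.26 to 1.62 over the other settings, all of which kept the call. On the log2 CPM scale, Ltb minus the mean of the B cell markers was 0.32 ± 0.206 in TNF+ and -0.41 ± 0.105 in TNF- lungs, a difference of 0.73 without overlap (exact permutation p = 0.1, adjusted 0.12).

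Lta, the subunit shared by secreted and membrane lymphotoxin (chr17:35203165-35205351, minus strand), had the lowest mean level per exon length of the members in TNF+ lungs. It gave 33, 59 and 87 counts in TNF+ and 17, 24 and 51 in TNF-. After normalization TNF- replicate 3, at 45.3, exceeded TNF+ replicate 1, at 43.5. The log2 fold change was 1.14 (SE 0.41, adjusted p = 0.0509 by edgeR), just missing the threshold. Lta was called under 7 of 15 other settings, among them DESeq2 (adjusted p = 0.0311) and the fit without TNF- replicate 3 (log2 fold change 1.66, adjusted p = 0.0113). Relative to the T cell markers it was -2.87 ± 0.653 in TNF+ and -3.20 ± 0.246 in TNF- lungs, which overlapped (exact permutation p = 0.7).

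Ltbr, the receptor for membrane lymphotoxin and for LIGHT (chr6:125306571-125313885, minus strand), gave 2002, 2547 and 2517 counts in TNF+ and 3246, 3122 and 3391 in TNF-. The normalized values of the TNF+ lungs lay below all of TNF-, 2550 ± 151 against 3036 ± 58.2. Ltbr had a log2 fold change of -0.25 (SE 0.09, adjusted p = 0.0449 by edgeR). This call is borderline. It was lost under 10 of 15 other settings, with adjusted p-values of 0.0545, 0.0767 and 0.0916 without TNF+ replicate 1, 2 or 3 and of 0.0825 and 0.0881 without TNF- replicate 1 or 2, and the value was below 0 in all.

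The list for the noncanonical NF-kB pathway, downstream of the lymphotoxin beta receptor, held 11 genes, among them Nfkb1, Rela and Ikbkb, which are best known from the canonical pathway. Of the 11, 8 rose in TNF+ lungs, Nfkb1 (0.70, SE 0.10) included, and none fell, where 24.0% of all genes were called higher. The median log2 fold change was 0.89 beside 0.03 over all genes. Relb, a subunit of the factor that this pathway releases, had 2.58 (SE 0.16, adjusted p = 1.6e-05 by edgeR), and its partner Nfkb2 had 1.71 (SE 0.10). Map3k14, the kinase NIK that starts the pathway, had 1.00 (SE 0.12), and Traf3 and Birc3, which hold NIK in check, had 0.89 (SE 0.12) and 2.11 (SE 0.10). The kinase genes Chuk and Ikbkb and the canonical subunit Rela did not pass, with -0.10, 0.25 and 0.17. Several of these genes are also known targets of TNF itself.

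Other cytokine and receptor genes of lymphoid tissue, 20 of which were tested, had 14 that rose and 2 that fell, with a median log2 fold change of 1.14. Over all genes, 24.0% were called higher and 23.4% lower. Tnfsf11, encoding RANKL, had 2.93 (SE 0.47, adjusted p = 0.00147 by edgeR), and Ccl20, an attractant of B cells and dendritic cells, had 2.38 (SE 0.48). Cxcl12 and its receptor Cxcr4 rose by similar amounts, 1.29 (SE 0.16) and 1.30 (SE 0.13), and Il7, a survival factor for lymphocytes, had 1.13 (SE 0.28, adjusted p = 0.011, and 0.0991 without both libraries that stood apart). Tnfsf14, which encodes LIGHT, the other ligand of the lymphotoxin beta receptor, had 0.49 (SE 0.28, adjusted p = 0.184), and the B cell survival factor Tnfsf13b had 0.19 (SE 0.10, adjusted p = 0.154). Tnfrsf14, a second receptor for LIGHT, rose by 1.02 (SE 0.13). Ackr4, a scavenger that removes CCL19 and CCL21, fell by 2.38 on the log2 scale (SE 0.37, adjusted p = 0.00118).

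The addressins had the fewest counts of all members in 2 of the 3 TNF- lungs. Madcam1, the vascular ligand of alpha4beta7 (chr10:79664559-79668537, plus strand), gave 115, 324 and 231 counts in TNF+ and 0 in every TNF- replicate. Every TNF+ lung had it and no TNF- lung had a count. Against a floor of 3 counts per TNF- lung it was at least 83.8-fold higher in TNF+ lungs (adjusted p = 0.000103 by edgeR). It kept its call under 14 other settings and was not tested where at least 10 counts were asked of every lung.

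Glycam1, which encodes a sulfated mucin-like glycoprotein of high endothelial venules (chr15:103562759-103565081, minus strand), gave 108, 67 and 115 counts in TNF+ and 1, 0 and 66 in TNF-. TNF- replicate 3 lay just under the lowest TNF+ lung, at 58.6 against 69.3 normalized counts, and the other TNF- lungs were at or near 0. Glycam1 had a log2 fold change of 2.39 (SE 1.09, adjusted p = 0.104 by edgeR). Without TNF- replicate 3 it was 7.45 (adjusted p = 0.000263), and limma-voom gave 4.83 (adjusted p = 0.0126), so the call depends on that lung and on the tool. That lung also had the most counts of Adipoq, a fat cell gene, 657, where the remaining TNF- replicates had 334 and 237 and the TNF+ replicates 13, 12 and 346. The part of fat or of tissue within it in the Glycam1 value was not tested. Glycam1 is also made by the mammary gland, and none of 7 mammary gland markers passed the filter on low counts. They summed to 0.562 to 1.09 CPM in TNF+ and 0.190 to 0.529 CPM in TNF- lungs, without overlap. The part of mammary tissue in the Glycam1 value was not tested.

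Of 17 genes tested for high endothelial venules and lymphocyte homing, 10 rose and 5 fell, with a median log2 fold change of 0.93. Over all genes, 24.0% were called higher and 23.4% lower. Ackr1, which carries chemokines across venules, had 3.26 (SE 0.27, adjusted p = 4.9e-05 by edgeR), and Enpp2, encoding autotaxin, had 2.72 (SE 0.10). Among the enzymes that build the sugar chains of addressins, Fut7 and Gcnt1 rose (1.59, SE 0.26, and 1.30, SE 0.17), and the sulfotransferase genes Chst4 and Chst2 fell by 2.35 (SE 0.38, adjusted p = 0.0015) and 1.09 (SE 0.11) on the log2 scale. Of the subunits of the lymphocyte integrin that binds MAdCAM-1, Itga4, the alpha4 subunit, had 1.31 (SE 0.10, adjusted p = 4.39e-05), and Itgb7, the beta7 subunit, had -0.02 (SE 0.15, adjusted p = 0.923).

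**Figure D5:**
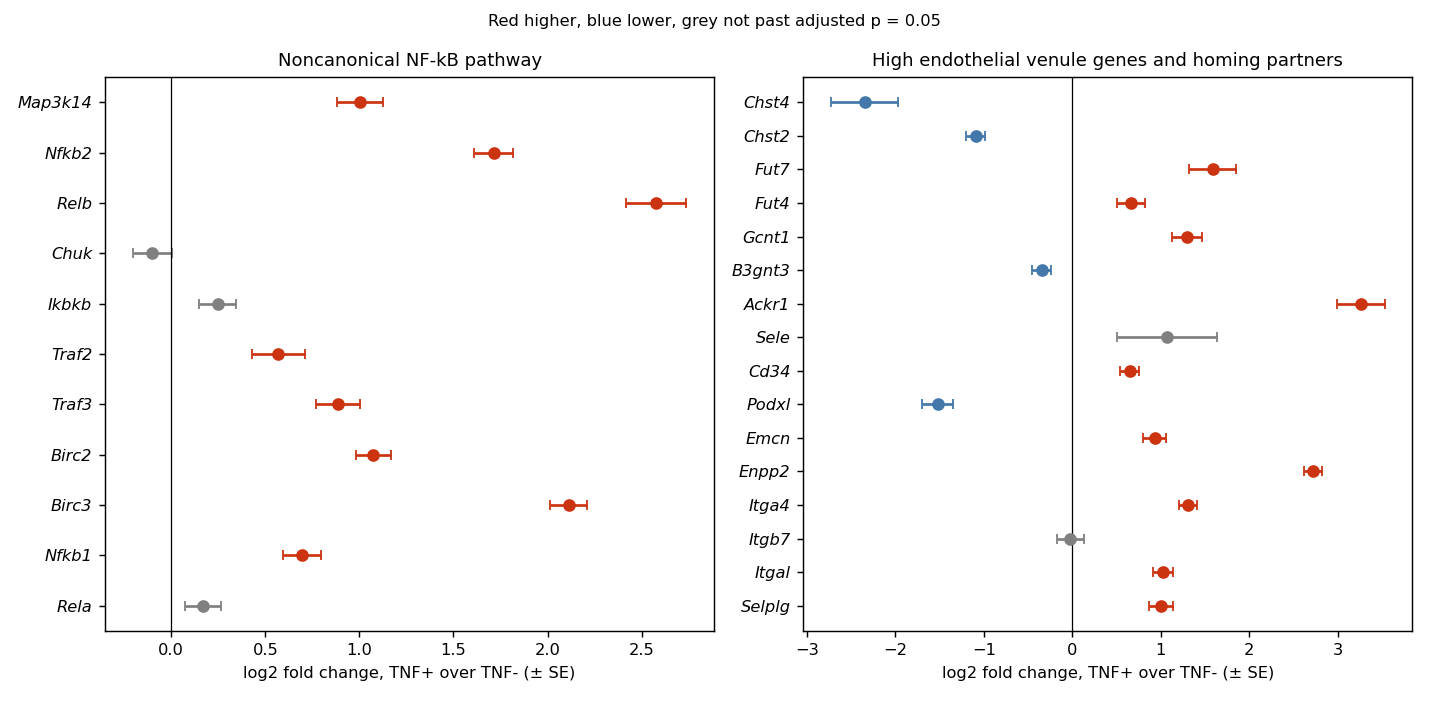
Log2 fold change with standard error (edgeR), TNF+ over TNF-, of the genes listed for the noncanonical NF-kB pathway, Nfkb1, Rela and Ikbkb of the canonical one included (left), and of 16 of the 17 tested genes of high endothelial venules and homing (right). Red points were higher and blue points lower at an adjusted p of 0.05, and grey points did not pass. In the left panel 8 of 11 genes are red, and in the right panel 10 of 16 are red and 4 blue, Chst4 being the lowest.

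The 6 genes listed as blood endothelial markers moved the other way from Madcam1. All 6 fell, with a median log2 fold change of -1.31, from Pecam1 at -0.56 (SE 0.12) to Vwf at -3.22 (SE 0.18, adjusted p = 9.31e-06 by edgeR). The receptor genes Tek and Kdr had -1.94 (SE 0.12) and -1.44 (SE 0.18). Emcn and Cd34, endothelial genes that were listed with the high endothelial venule genes, rose instead, by 0.93 (SE 0.13) and 0.65 (SE 0.11) on the log2 scale. The summed level of the 6 markers was 1429 to 1602 CPM in TNF+ and 3542 to 4344 CPM in TNF- lungs. Among 12 genes of stromal organizer cells 6 rose and 2 fell, with a median of 0.75, where 24.0% of all genes were called higher and 23.4% lower. Bst1 had 2.11 (SE 0.14) and the adhesion molecule Vcam1 had 1.71 (SE 0.10), whereas Pdpn, the podoplanin gene of stromal and alveolar cells, fell by 0.71 (SE 0.12) on the log2 scale. Their part in the values of the members was not tested.

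To compare the members with each other, counts were divided by exon length, as CPM per kilobase of exon. In TNF+ lungs Cxcl13 was highest at 572 ± 88.3 (SD, n = 3), followed by Ccl21a at 187 ± 19.1 and Ccl19 at 174 ± 41.5, which overlapped. Ltbr at 35.8 ± 2.12 and Ltb at 25.6 ± 2.92 came next and did not overlap. Madcam1 at 5.41 ± 2.14 and Ccr7 at 4.45 ± 0.419 overlapped, and Cxcr5 at 3.49 ± 0.530 lay just under Ccr7. Glycam1 at 1.66 ± 0.568 and Lta at 1.49 ± 0.463 were lowest and overlapped.

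In TNF- lungs the order was another one. Ccl21a led at 207 ± 19.5 on the same scale, followed by Ltbr at 42.7 ± 0.818. Ltb at 9.66 ± 2.33, Ccr7 at 6.86 ± 1.63, Cxcl13 at 5.53 ± 2.69, Ccl19 at 4.04 ± 0.755 and Cxcr5 at 3.23 ± 0.967 formed a row in which each overlapped its neighbour. Lta at 0.674 ± 0.364 and Glycam1 at 0.308 ± 0.521 overlapped, and Madcam1 was at 0. Cxcl13 thus stood in 1st place in TNF+ lungs and in 5th in TNF- lungs. With the longest transcript as the length, only Ccl19 and Ccl21a exchanged places in TNF+ lungs.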

How the data were processed

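RNA of 6 whole lungs was measured, one library per mouse, with 3 TNF+ and 3 TNF- mice. Per the submitters' processing notes and the methods, the authors cleaned reads with Trimmomatic (version 0.36 in the notes), mapped them with STAR (version 2.5.2b) to GRCm38.p5 and counted them with featureCounts. The deposited values are raw counts of reads for each gene symbol in each lung, not normalized. The methods speak of uniquely mapped transcripts. The settings for strand and multi-mapped reads are not given in the sources used here.

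The test over all 6 columns used edgeR 4.0.16 in R 4.3.3, after filterByExpr (minimum count 10, minimum total 15) and TMM, by the quasi-likelihood test with genotype alone and Benjamini-Hochberg adjustment. A standard error is the log2 fold change divided by the square root of F. Log2 CPM used a prior count of 2. Floors cover counting error only. The 10 members and all gene lists were chosen with earlier results of these data known. From each list the 3 genes with the largest change past the cutoff were named, with direct partners of the members chosen without regard to values. Other genes of the lists were named after their values were seen. A few listed genes have no value printed here.

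Positions and exon lengths were taken from GENCODE M21 (GRCm38), shared sequence as windows of 100 bases found in transcripts of another gene, and promoters from RefSeq (GRCm38.p6). Other settings tried were the tools DESeq2 1.42.0 and limma-voom (limma 3.58.1), scaling by DESeq2's size factors or by total counts, dropping the filter or asking for 10 counts in each lung, a robust dispersion, a block for the replicate number, and leaving out each lung. Leaving out the libraries that stood apart, TNF+ replicate 1 and TNF- replicate 1, was added after seeing the data. The edgeR step was tested on simulated data for 18963 genes, of which 200 were changed: 166 were recovered, with 8 false calls. The simulation gave all genes the same dispersion and held no library that stood apart, whereas 47.4% of genes were called here. Its figures are therefore not error rates for these lungs.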

Additional observations from a re-analysis of the deposited data

How the results depend on the processing

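Cxcl13, Ccl19, Ltb and Madcam1 kept direction and call under every alternative in which they were tested. Of 66 genes named, 46 kept their call throughout, and Cxcr5 and Itgb7, neither of them called, changed sign. Cxcr5 was -0.12 without TNF- replicate 1 and -0.0122 without both TNF+ replicate 1 and TNF- replicate 1, with -0.12 to 0.33 over single lungs left out. Itgb7 lay between -0.19 and 0.15 with single lungs left out. The number of members called was 4 to 8. The number of members lower in TNF+ lungs was 1 with total counts only, 1 with no filter on low counts, 1 with robust dispersion, 1 without both libraries that stood apart and 0 to 1 with single lungs left out. Genes higher in TNF+ lungs numbered 2689 without those 2 libraries, where fewer lungs were tested.

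The relative value of Lta to T cell markers lay between -0.031 and 0.61 with single lungs left out. Ccl21a relative to lymphatic markers was 1.34 with their summed level. Madcam1 relative to blood endothelial markers was 8.40, and 10.39 with a prior count of 0.5, so that it is set by that choice. The cause of the other shifts was not tested.

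Same-numbered lungs came from different mice and did not deviate together (correlations -0.149, -0.00438 and -0.238, against -0.0559 to 0.208 for other pairs). With the replicate block 7686 genes and 5 members were called, of which 0 were lower, with Lta called (adjusted p = 0.0213 by edgeR) and Ccr7 and Ltbr not (0.0654 and 0.0995). With 3 lungs a group, changes of low-count members such as Lta and Glycam1 are poorly resolved, and Ccl21a and Ccl19 depend on how reads of copies were counted.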

Other observations

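Genes of germinal centres and follicular helper T cells, which populate organized lymphoid tissue, gave a mixed picture. Of 5 tested, 2 rose, 1 fell and 2 did not pass, S1pr2 with a log2 fold change of -0.08 (SE 0.09) and Gcsam with 0.41 (SE 0.22). Over all genes, 24.0% were called higher and 23.4% lower. Pdcd1 had a log2 fold change of 1.95 (SE 0.45, adjusted p = 0.00859 by edgeR), Icos had 1.18 (SE 0.38, adjusted p = 0.0316) and Bcl6, the master regulator of both cell types, had -0.31 (SE 0.11, adjusted p = 0.0427). Only Pdcd1 kept its call with every single lung left out. Without TNF+ replicate 1, TNF+ replicate 2, TNF- replicate 1 or TNF- replicate 2, Icos had adjusted p-values of 0.124, 0.0637, 0.0969 and 0.103, and Bcl6 of 0.063, 0.132, 0.118 and 0.0626. Il21, a cytokine of follicular helper T cells, had 14, 11 and 5 counts in TNF+ lungs and 1, 0 and 0 in TNF- lungs. Rgs13 had 1, 0 and 0 against 1, 0 and 4, and Mef2b 0, 4 and 0 against 1, 0 and 2. These 3 genes were too low to be tested.

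Dendritic cells also use CCR7 once they mature, and the list of 9 genes for them holds genes of maturation (Fscn1, Cd83, Ccl17 and Ccl22) and of dendritic cell lineages (Flt3, Cd209a, Zbtb46, Xcr1 and Clec9a). Of the 9 tested, 4 rose and 1 fell, where 47.4% of all genes were called, with a median log2 fold change of 0.46 beside 0.03 over all genes. Fscn1, the actin bundler of mature dendritic cells, had 2.76 (SE 0.11, adjusted p = 3.26e-06 by edgeR), Cd83 had 1.06 (SE 0.24), Flt3 had 1.75 (SE 0.17) and Cd209a had 1.74 (SE 0.26). The other lineage genes did not pass, with 0.46 (SE 0.20) for Xcr1, -0.27 (SE 0.11) for Zbtb46 and -0.36 (SE 0.31) for Clec9a. The chemokine Ccl22 fell by 1.59 on the log2 scale (SE 0.19), and Ccl17 had 0.10 (SE 0.23) and did not pass. Ccr7 was lower in the same lungs. Of 6 plasma cell genes 5 rose, with Jchain at 5.16 (SE 0.77, adjusted p = 0.00103), Mzb1 at 2.90 (SE 0.48) and Irf4 at 1.89 (SE 0.24).

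Thymus tissue can reach a lung sample and carries Ccl21a and Ccl19. The 7 thymus markers summed to between 0.507 and 1.61 CPM over the 6 lungs. Prss16 had a log2 fold change of 1.62 (SE 0.43, adjusted p = 0.0149, and at most 0.0566 without TNF+ replicate 2 or TNF- replicate 1 or 2, where the call was lost), Foxn1 had 0 to 1 counts in TNF+ lungs and 13, 1 and 5 in TNF- lungs, and Rag1 had 0 in every TNF+ lung and 9, 1 and 0 in TNF- lungs.

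Some markers of squamous epithelium and fat were lower in TNF+ lungs, with calls or sizes that changed when single lungs were left out. Of 4 squamous genes tested, 3 were lower in TNF+ lungs by edgeR, Krt5 (log2 fold change -6.54, SE 1.88), Calml3 (-3.29, SE 0.92) and Sbsn (-1.69, SE 0.54). The number called was 1, 0 and 0 without TNF+ replicate 1, 2 or 3 and 0 with limma-voom. Without TNF- replicate 1, the lung with most counts of these genes, it was 2, and the log2 fold changes were smaller, -2.16 for Krt5, -1.43 for Calml3 and -0.84 for Sbsn. Of 4 fat cell genes 2 were lower, Pck1 (-2.85, SE 0.70) and Cidec (-1.82, SE 0.55). The number called was 1 without TNF+ replicate 1, TNF+ replicate 2 or TNF- replicate 3 and 4 without TNF+ replicate 3, where Pck1 had -4.53 and Cidec had -2.91. Pck1 kept its call with every single lung left out. With robust dispersion none of these 5 squamous and fat genes was called, with adjusted p-values from 0.0569 for Pck1 to 0.125 for Sbsn.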
